A study of Drosophila melanogaster with 12 samples.

Results

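The genes described here were 8 *Drosophila* genes for storage proteins and lipoproteins of the fat body, selected by symbol from the 14162 genes of a head RNA-seq count table. They were *Lsp1alpha*, *Lsp1beta*, *Lsp1gamma*, *Lsp2*, *Fbp1*, *Fbp2*, *apolpp* and *Apoltp*. The choice was made with earlier results of the same libraries known, so the values of these 8 genes are given as a description and without a test. Of the 8, 7 passed the filter on low counts, and *Lsp1alpha* did not. *Lsp1gamma* and *Fbp2* passed only through the AD libraries, the group in which they were high. *Fbp1* passed only with the libraries labelled AD + Yip7, the group in which its mean was highest.

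The fly fat body combines functions of liver and adipose tissue, and it also lies in the head capsule around the brain. In larvae it secretes hexamerins, large blood proteins that store amino acids for metamorphosis, and near pupariation it takes them back through a receptor encoded by *Fbp1*. The fat body is also the source of lipophorin, the main lipid carrier of fly blood. Its scaffold is the product of *apolpp*, which crosses the blood-brain barrier, while the product of *Apoltp* helps to load lipophorin with lipid from the gut.

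The study asked how neuronal Aβ42, alone or together with the serine protease Yip7, altered gene expression. Each of 4 groups held 3 libraries, and in all of them the pan-neuronal driver nSyb-Gal4 was present. AD + Yip7 flies (nSyb>Abeta42+yip7) carried Aβ42 and *yip7*. AD + Yip7ΔS flies (nSyb>Abeta42+yip7_S) carried Aβ42 and a Yip7 form without the N-terminal stretch that the study describes as a putative transmembrane domain. AD flies (nSyb>Abeta42) carried Aβ42 alone, and Control flies (nSyb>w1118) carried no UAS transgene. The Aβ42 was the secreted Arctic form of the human peptide, and the methods describe pooled heads of mated females. Flies were kept at 29 °C. Their labelled age was 10 days, except for Control replicate 3, labelled 2 weeks, and the sample text mentions brains although the labelled tissue is head. Since Control flies lacked any UAS insertion, expression of a transgene and the genetic background that came with it cannot be told apart.

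Libraries held 38064884 to 41737332 counts, so 3 counts were worth 0.0710 to 0.0795 CPM, the depth-scaled count used below. The counts of the targeted gene did not follow the group labels. *yip7* had 135, 173 and 123 CPM in libraries labelled AD + Yip7 and 73.8, 88.1 and 81.1 CPM in those labelled AD + Yip7ΔS, against 157, 159 and 94.2 CPM in AD libraries and 5.97, 0 and 6.07 CPM in Control libraries. Its log2 fold change was 0.08 ± 0.62 (SE) in libraries labelled AD + Yip7 vs. AD (edgeR adjusted p = 0.976). The added *yip7* was thus not seen as a higher count, and both group names are used below as labels, also where a direction is drawn from them. Digestive markers of the midgut, given below, also differed between these groups, and their part in the *yip7* counts was not tested. Photoreceptor markers summed to 47300 to 68400 CPM over all libraries and egg chamber markers to at most 0.547 CPM. In bulk RNA of this kind, fewer fat body cells and less RNA per cell cannot be told apart.

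Together the 8 genes took up 0.745 to 0.942% of all counts in libraries labelled AD + Yip7 and 0.756 to 0.844% in those labelled AD + Yip7ΔS. The share was 0.505 to 0.586% in AD libraries and 1.16 to 1.27% in Control libraries. Most of these counts belonged to *apolpp*, which alone made up 0.453 to 0.53% of the counts in AD libraries and 0.873 to 0.915% in Control libraries.

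**Figure D1:**
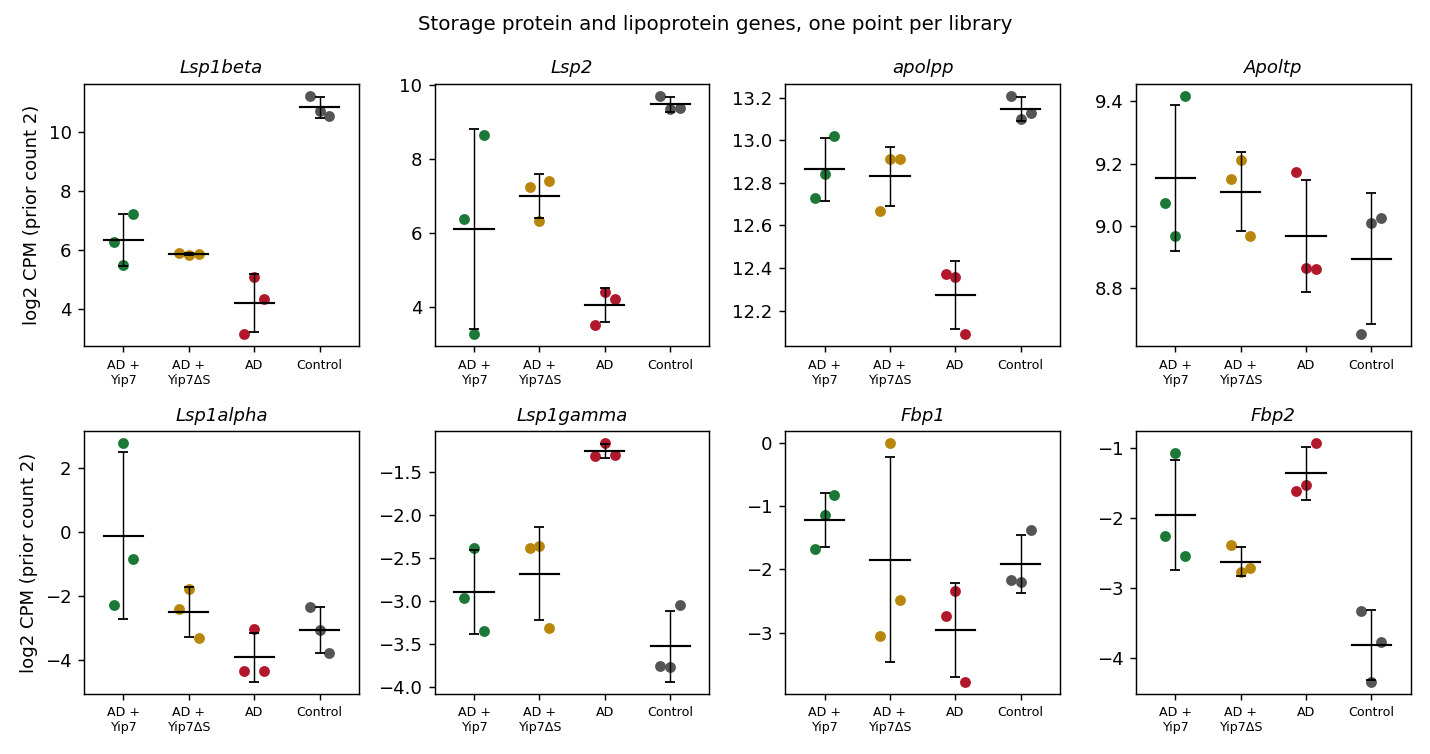
Levels of the 8 genes as log2 CPM (prior count 2; y axes differ between panels) in libraries labelled AD + Yip7, AD + Yip7ΔS, AD and Control. Points are libraries, horizontal lines are means and bars are SD (n = 3). All 3 AD libraries lie below all 3 Control libraries for *Lsp1beta*, *Lsp2* and *apolpp*, and above them for *Lsp1gamma* and *Fbp2*.

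*Lsp1beta* encodes the beta subunit of larval serum protein 1, a hexamerin. The gene (FBgn0002563) lies on chromosome 2L at 898500 to 901316, plus strand (BDGP6, the dm6 build). It had 8.92, 34.5 and 20.6 CPM in AD libraries, against 2436, 1711 and 1505 CPM in Control libraries. The groups were far apart, and the mean was 88.2-fold lower in AD libraries. The log2 fold change of -6.46 ± 0.55 (SE) was the 4th lowest of the 10577 genes tested. The values were 78.3, 45.3 and 152.3 CPM in libraries labelled AD + Yip7, and in those labelled AD + Yip7ΔS they were 60.5, 57.1 and 58.8 CPM. Every one of these 6 values lay above every AD value and far below every Control value. The mean was 4.30-fold higher in libraries labelled AD + Yip7 and 2.75-fold higher in those labelled AD + Yip7ΔS than in AD libraries. Against Control libraries it was still 20.5-fold lower in libraries labelled AD + Yip7 and 32.1-fold lower in those labelled AD + Yip7ΔS.

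*Lsp2* (FBgn0002565, 3L at 12129393 to 12131869, plus strand) encodes the second type of larval hexamerin. It had 11.4, 20.9 and 18.4 CPM in AD libraries, against 838.5, 646.3 and 663.9 CPM in Control libraries. The mean was 42.4-fold lower in AD libraries (log2 fold change -5.40 ± 0.97), the 9th lowest of the genes tested. The libraries labelled AD + Yip7 were scattered, with 82.1, 9.50 and 400.8 CPM. One of them lay below all AD libraries, so these groups overlapped. Their mean was 9.71-fold higher than in AD libraries, 2.71-fold without replicate 3 and 14.3-fold without replicate 2. Libraries labelled AD + Yip7ΔS had 151.6, 80.3 and 170.1 CPM, all above AD and all below Control, with a mean 7.93-fold higher than in AD libraries. The antisense RNA asRNA:CR11538 shares 2096 exonic bases with *Lsp2*. It had no row of its own in the count table, and since the strand setting of the counting is not given in the sources used here, reads from both cannot be told apart.

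*apolpp* (FBgn0087002, chromosome 4 at 1060969 to 1077273, plus strand) encodes the precursor of the apolipophorins. It had 5304, 5262 and 4370 CPM in AD libraries, against 9486, 8808 and 8975 CPM in Control libraries. The mean was 1.83-fold lower in AD libraries (log2 fold change -0.87 ± 0.13), without overlap. It had 6817, 7310 and 8284 CPM in libraries labelled AD + Yip7 and 6535, 7689 and 7675 CPM in those labelled AD + Yip7ΔS. Each of these libraries lay between the highest AD and the lowest Control library. The log2 fold change against AD was 0.59 ± 0.13 for libraries labelled AD + Yip7 and 0.55 ± 0.13 for those labelled AD + Yip7ΔS. *Zyx*, on the opposite strand, shares 96 exonic bases with *apolpp* and had at most 6355 counts in a library, while *apolpp* had at least 183786.

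*Apoltp* (FBgn0032136, 2L at 9634179 to 9656026, plus strand), for the lipid transfer particle, did not share this pattern. It had 577.6, 466.6 and 465.5 CPM in AD libraries, against 402.6, 515 and 520.7 CPM in Control libraries, so the ranges overlapped (log2 fold change 0.07 ± 0.15). It had 538.8, 500.9 and 684 CPM in libraries labelled AD + Yip7, and in those labelled AD + Yip7ΔS 568.4, 592.3 and 500.5 CPM. Neither group was separated from AD.

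**Figure D2:**
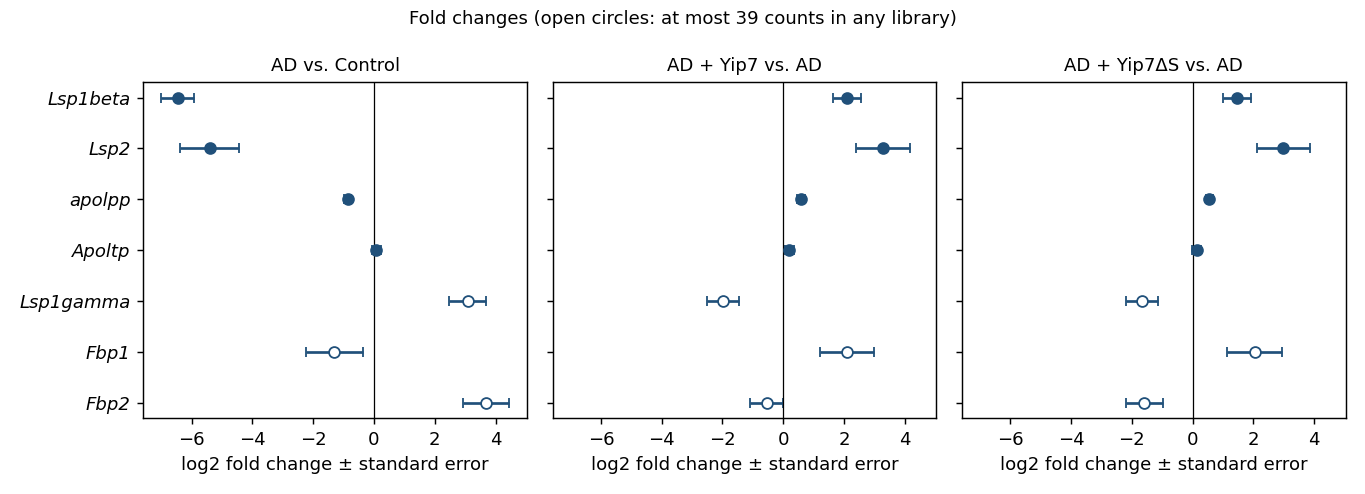
Fitted log2 fold change (x axis) of the 7 genes that passed the filter, with its standard error as the bar, in AD vs. Control and in libraries labelled AD + Yip7 vs. AD and AD + Yip7ΔS vs. AD. *Lsp1beta* (-6.46) and *Lsp2* (-5.40) stand far to the left in AD vs. Control, and *Apoltp* stays near 0 in all 3 panels.

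The other 4 genes were near the limit of detection. *Lsp1gamma* (FBgn0002564, 3L at 66430 to 68995, plus strand), for the gamma subunit of larval serum protein 1, had 14, 16 and 15 counts in AD libraries, against 1, 1 and 3 counts in Control libraries. The ratio of summed counts per depth was 9.07. It had 3, 6 and 2 counts in libraries labelled AD + Yip7 and 6, 6 and 2 in those labelled AD + Yip7ΔS, all below the AD libraries. The Lsp1 subunits are paralogs, and how the counting treated reads that match more than one of them is not given in the sources used here.

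*Fbp2* (FBgn0000640, 2L at 9426784 to 9427917, plus strand) encodes a fat body protein of the alcohol dehydrogenase family. It had 11, 12 and 20 counts in AD libraries, against 2, 0 and 1 counts in Control libraries, a ratio of 14.5. Its 95% exact binomial interval, 4.63 to 72.8, is given because of the few Control counts, covers counting error only and is no test of the difference. It had 6, 18 and 5 counts in libraries labelled AD + Yip7, which overlapped AD, and 6, 4 and 4 counts in those labelled AD + Yip7ΔS, which did not. *Fbp1* (FBgn0000639, 3L at 14094589 to 14098053, minus strand), the hexamerin receptor gene, had 4, 6 and 1 counts in AD libraries, against 7, 7 and 14 counts in Control libraries, a ratio of 0.396. It had 10, 17 and 21 counts in libraries labelled AD + Yip7, all above AD. In those labelled AD + Yip7ΔS it had 3, 39 and 5 counts, and the log2 fold change against AD of 2.05 was 0.14 without replicate 2.

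*Lsp1alpha* (FBgn0002562, X at 12490291 to 12492982, plus strand) had 0, 3 and 0 counts in AD libraries, against 6, 3 and 1 counts in Control libraries. It had 6, 10 and 2 counts in libraries labelled AD + Yip7ΔS. In those labelled AD + Yip7 it had 6, 286 and 21 counts, so 286 of 313 counts came from replicate 2. That library also had the lowest *Lsp2* level of its group (9.50 CPM) and the lowest *Lsp1beta* level (45.3 CPM). The library with the most reads of the alpha subunit thus had the fewest reads per depth of *Lsp1beta* and *Lsp2* in its group. The same held in libraries labelled AD + Yip7ΔS (replicate 2, 10 counts). It was the reverse in AD (replicate 2, 3 counts) and Control libraries (replicate 1, 6 counts). There the library with the most *Lsp1alpha* counts had the highest levels of *Lsp1beta* and *Lsp2*.

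By the whole-table edgeR test (adjusted p under 0.05), 26% of all genes were called in AD vs. Control (14.4% higher and 11.6% lower), and 5 of the 7 genes tested were: *Lsp1beta*, *Lsp2* and *apolpp* lower, *Lsp1gamma* and *Fbp2* higher. The background was 1.81% in libraries labelled AD + Yip7 vs. AD (0.945% higher and 0.86% lower), and 2 of 7 were called, *Lsp1beta* and *apolpp*, both higher. Of 20 alternatives, *Lsp1beta* lost this call in 11 and *apolpp* in 13. Among them was the edgeR fit on the 6 libraries compared, in which 0 of 7 were called, beside 1.44% of all genes. The background was 1.85% for libraries labelled AD + Yip7ΔS vs. AD (0.87% higher and 0.983% lower), and 1 of 7 was called, *apolpp*, as higher, a call lost in 16 of 20 alternatives. It was 14.6% for AD + Yip7 vs. Control (9.13% higher and 5.44% lower), with *Lsp1beta* called as lower and *Fbp2* as higher, the call of *Fbp2* being lost without AD + Yip7 replicate 2 or Control replicate 2 or 3. For AD + Yip7ΔS vs. Control it was 18.9% (10.9% higher and 7.94% lower), with *Lsp1beta* alone called, as lower. Nothing is read from these counts, since such values were known when the genes were chosen. The median log2 fold change of the 7 genes was -0.87 in AD vs. Control, beside -0.0053 over all genes tested, and 0.59 in libraries labelled AD + Yip7 vs. AD, beside 0.019. The comparisons share the AD or the Control libraries.

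Libraries labelled AD + Yip7 vs. AD + Yip7ΔS had the lowest background, at 0.0662% (7 genes, 0.0284% higher and 0.0378% lower), and 0 of the 7 genes were called. None was called by DESeq2 either, beside 1.28% of all genes. By edgeR 0 had an unadjusted p under 0.05, beside 1086 of 10577 genes. The log2 differences were 0.65 ± 0.44 for *Lsp1beta*, 0.29 ± 0.80 for *Lsp2*, 0.03 ± 0.13 for *apolpp* and 0.05 ± 0.15 for *Apoltp*, and the ranges overlapped for each of the 4. With errors of this size, a difference of the order of the *Lsp2* error would not be visible.

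Per kilobase of exon, the order of levels differed between groups. In AD libraries *apolpp* was highest (mean 423.2 CPM per kb), followed by *Apoltp* (37.8), *Lsp1beta* (7.77) and *Lsp2* (6.82), and the last pair overlapped. In Control libraries *apolpp* (772.5) and *Lsp1beta* (685.3) overlapped at the top, *Lsp2* followed (289.1) and *Apoltp* was below them (35.97). For libraries labelled AD + Yip7, *apolpp* had 634.9 CPM per kb, and *Lsp2* (66.3), *Apoltp* (43.1) and *Lsp1beta* (33.5) followed with overlapping ranges.

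The genes also differed in how reproducible they were. The pooled SD of log2 CPM within groups was 1.41 for *Lsp2*, larger than for 99.3% of all genes, and 0.68 for *Lsp1beta*. The *Lsp2* value rested on the libraries labelled AD + Yip7 (SD 2.71), without which the pooled SD was 0.45. *Lsp1beta* had an SD of 0.04 in libraries labelled AD + Yip7ΔS and of 0.98 in AD libraries. The pooled SD was 0.13 for *apolpp* and 0.19 for *Apoltp*, near the median of 0.18 over all genes.

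Ratios within a library do not depend on its depth. The count ratio of *apolpp* to *Apoltp* was 9.18, 11.3 and 9.39 in AD libraries, against 23.6, 17.1 and 17.2 in Control libraries. It was 12.7, 14.6 and 12.1 in libraries labelled AD + Yip7 and 11.5, 13 and 15.3 in those labelled AD + Yip7ΔS, above AD and below Control in each library. The ratio of *Lsp1beta* to *Lsp2* was 0.784, 1.65 and 1.12 in AD libraries, against 2.91, 2.65 and 2.27 in Control libraries. It was 0.399, 0.711 and 0.346 in libraries labelled AD + Yip7ΔS, below all AD libraries, and ranged between 0.38 and 4.76 in those labelled AD + Yip7. Against AD, the fitted log2 fold changes in libraries labelled AD + Yip7ΔS were 1.46 ± 0.45 for *Lsp1beta* and 2.99 ± 0.87 for *Lsp2*. Whether the 2 hexamerin genes were higher by different factors was not tested.

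**Figure D3:**
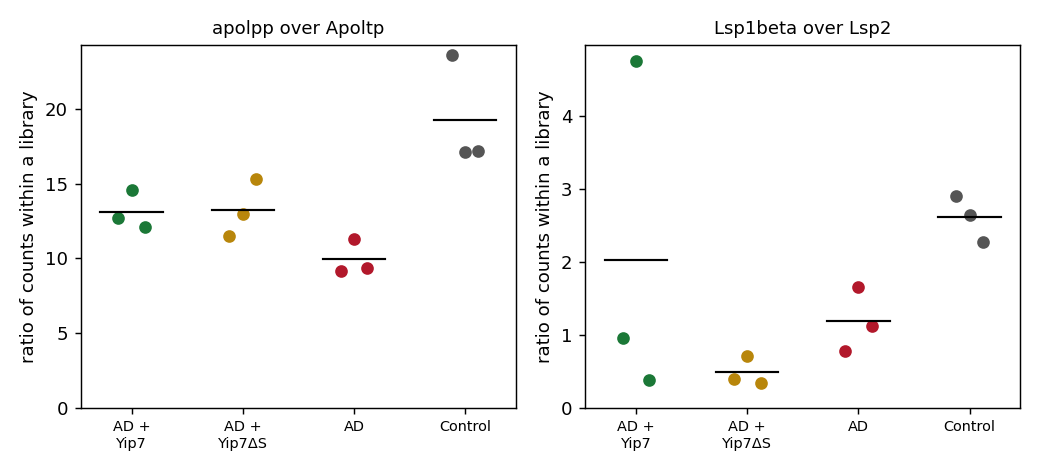
Count ratios within each library (y axes, starting at 0) of *apolpp* to *Apoltp* and of *Lsp1beta* to *Lsp2* in libraries labelled AD + Yip7, AD + Yip7ΔS, AD and Control. Points are libraries and lines are means. The *apolpp* to *Apoltp* ratio is 9.18 to 11.3 in AD libraries and 17.1 to 23.6 in Control libraries, with the other libraries in between.

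Genes that act with these proteins were then examined, as 3 lists of 51 genes in all, of which 48 were in the table and tested. Of these, 3 were called higher and 14 lower in AD than in Control flies (edgeR adjusted p under 0.05), beside 14.4% and 11.6% of all genes. The other 31 were not called. The list for assembly, processing and uptake of lipoproteins held 14 genes, of which 1 was higher and 2 were lower in AD. *cv-d*, which encodes a vitellogenin-like lipoprotein, had a mean of 60.7 CPM in AD libraries and 107.2 CPM in Control libraries (log2 fold change -0.82 ± 0.16, adjusted p = 0.0021). *crq*, a scavenger receptor of the CD36 family, was also lower (-0.46 ± 0.12, adjusted p = 0.012), and the lipocalin gene *NLaz* was higher (0.49 ± 0.16, adjusted p = 0.035). *NLaz* lost this call without AD replicate 1 or 3 or Control replicate 2 or 3 (adjusted p up to 0.11). It was also higher than in Control in libraries labelled AD + Yip7 (0.53 ± 0.16) and AD + Yip7ΔS (0.51 ± 0.16), both with adjusted p = 0.039. These calls were lost in 7 and 8 of 20 alternatives. The lipophorin receptor genes did not pass the test, with log2 fold changes of -0.22 ± 0.11 for *LpR1* (adjusted p = 0.14) and -0.39 ± 0.15 for *LpR2* (adjusted p = 0.069). *Mtp*, whose product lipidates apolipophorin, had -0.09 ± 0.12 (adjusted p = 0.62). Against AD, 0 of the 14 genes were called in libraries labelled AD + Yip7 (2 at an unadjusted p under 0.05, and 1 by DESeq2). The same count was 0 in those labelled AD + Yip7ΔS (4 unadjusted, 2 by DESeq2). Over all genes, 1.81% and 1.85% were called in these comparisons, and 1387 and 1600 of 10577 had an unadjusted p under 0.05.

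The list of hexamerin relatives and regulators of storage protein genes held 17 genes. *PPO1* and *PPO2*, which encode prophenoloxidases of the hexamerin superfamily made in crystal cells, were lower in AD. *PPO2* averaged 40.7 CPM in AD libraries and 113.7 CPM in Control libraries (-1.48 ± 0.22, adjusted p = 0.00038), and *PPO1* averaged 24.2 CPM in AD libraries and 92.8 CPM in Control libraries (-1.94 ± 0.33, adjusted p = 0.001). *Adh*, for alcohol dehydrogenase, a relative of *Fbp2*, was higher in AD (2.12 ± 0.33, adjusted p = 0.00052), as *Fbp2* was in counts. Its level was low, with a mean of 3.63 CPM in AD libraries and 0.832 CPM (17 to 50 counts) in Control libraries. The other 14 genes, which include the ecdysone receptor genes *EcR* and *usp*, did not pass the test. *PPO1* and *PPO2* were lower than in Control in libraries labelled AD + Yip7 as well (-1.67 ± 0.33 and -1.40 ± 0.22, adjusted p = 0.0041 and 0.00087). The same held in those labelled AD + Yip7ΔS (-1.30 ± 0.32 and -1.38 ± 0.22, adjusted p = 0.014 and 0.00074). There the call of *PPO1* was lost without AD + Yip7ΔS replicate 2 or Control replicate 3. The ecdysone-induced nuclear receptor gene *Eip75B* was higher in libraries labelled AD + Yip7ΔS than in AD (0.69 ± 0.16, adjusted p = 0.044), a call lost on the 6 libraries of the comparison (adjusted p = 0.16) and in 10 of 12 fits that left out a library (up to 0.14). *Adh* was higher than in Control in libraries labelled AD + Yip7 (1.69 ± 0.33, adjusted p = 0.0038) and AD + Yip7ΔS (2.00 ± 0.33, adjusted p = 0.00094), and the nuclear receptor gene *Hr3* was lower in those labelled AD + Yip7ΔS than in Control (-0.68 ± 0.12, adjusted p = 0.0014).

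The list of fat body metabolism and adult fat body genes held 17 genes. In AD vs. Control, 10 were called lower and 1 higher, beside 11.6% and 14.4% of all genes. *AkhR*, the receptor for adipokinetic hormone, averaged 52.2 CPM in AD libraries and 135.7 CPM in Control libraries (-1.38 ± 0.10, adjusted p = 1.1e-06). *Lsd-1*, which encodes a perilipin of lipid droplets, averaged 165.9 CPM in AD libraries and 449.3 CPM in Control libraries (-1.44 ± 0.10, adjusted p = 1.2e-06). The second perilipin gene *Lsd-2* was also lower (-0.71 ± 0.11, adjusted p = 0.00047). The gene that was higher was *bmm*, for a triglyceride lipase (0.71 ± 0.15, adjusted p = 0.0039); it was named after its value was seen. The median log2 fold change of the list was -0.55, between those of *apolpp* and *Apoltp*.

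In libraries labelled AD + Yip7 vs. AD, 0.945% of all genes were called higher and 0.86% lower (736 of 10577 lower unadjusted). Of the 17 genes of this list, 4 were higher there and 0 lower (1 unadjusted, 0 by DESeq2). These were *AkhR* (0.67 ± 0.10, adjusted p = 0.0037), the yolk protein genes *Yp2* (0.92 ± 0.14, adjusted p = 0.0046) and *Yp1* (0.53 ± 0.11, adjusted p = 0.029), and *fit*, for a peptide secreted by the female fat body (1.41 ± 0.31, adjusted p = 0.041). *Yp1* lost its call when any library of these 2 groups or Control replicate 3 was left out (7 of 12 fits, adjusted p up to 0.15), and *fit* lost it in 10 of 12 fits (up to 0.15), all but those without AD + Yip7 replicate 1 or AD replicate 2. For libraries labelled AD + Yip7ΔS vs. AD, 0 of the 17 were called (6 higher and 1 lower unadjusted, 3 by DESeq2). Over all genes, 1.85% were called, and 797 of 10577 were higher and 803 lower unadjusted. *AkhR* (0.24 ± 0.10), *Yp2* (0.48 ± 0.14), *Yp1* (0.27 ± 0.11) and *fit* (0.82 ± 0.31) were higher there without a call. In AD + Yip7 vs. AD + Yip7ΔS, 0 of the 17 were called (0.0662% of all genes). DESeq2 on all 12 libraries called 3 (1.28%). *Lsd-1* stayed lower than in Control in libraries labelled AD + Yip7 (-1.19 ± 0.10, adjusted p = 8.4e-06) and AD + Yip7ΔS (-1.42 ± 0.10, adjusted p = 1.4e-06). So did *AkhR* (-0.71 ± 0.10, adjusted p = 0.00036, and -1.14 ± 0.10, adjusted p = 5.6e-06). *Lsd-2* was lower as well (-0.54 ± 0.11, adjusted p = 0.0043, and -0.84 ± 0.11, adjusted p = 0.00016).

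**Figure D4:**
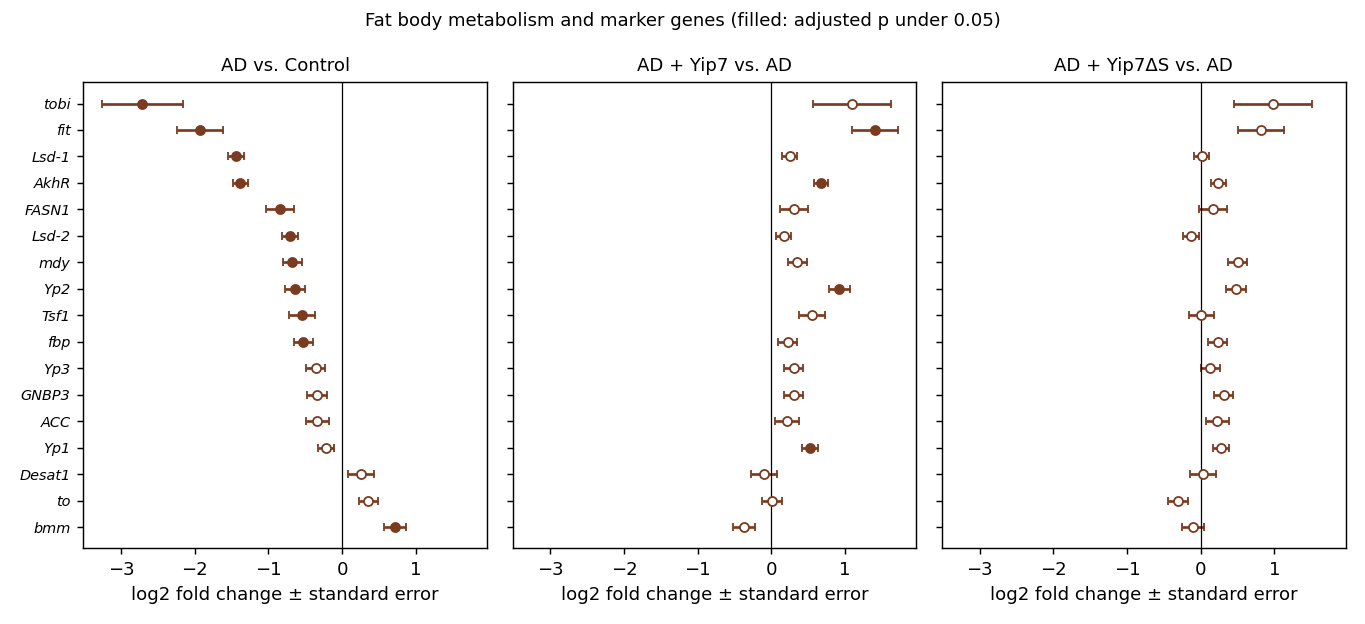
Log2 fold change (x axis) with standard error (bars) of 17 fat body metabolism and adult fat body genes in AD vs. Control and in libraries labelled AD + Yip7 vs. AD and AD + Yip7ΔS vs. AD. Filled circles have an edgeR adjusted p under 0.05, and 11, 4 and 0 genes are filled in the 3 panels.

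Summed marker genes of several cell types also differed between these groups. The 17 fat body genes summed to 110000 to 127000 CPM in libraries labelled AD + Yip7 and 96600 to 99300 CPM in those labelled AD + Yip7ΔS, against 79800 to 82800 CPM in AD libraries and 97400 to 109000 CPM in Control libraries. The 3 yolk protein genes made up 88.9 to 92.8% of this sum. Without them, a choice made after seeing the data, the other 14 genes summed to 7880 to 11200 CPM in libraries labelled AD + Yip7 and 8310 to 9220 CPM in those labelled AD + Yip7ΔS, against 7930 to 8800 CPM in AD libraries and 10800 to 11600 CPM in Control libraries. AD stayed below Control without overlap, while libraries labelled AD + Yip7 then overlapped both. The 6 hemocyte markers summed to 142 to 176 CPM in AD libraries, against 220 to 424 CPM in Control libraries. The 6 neuron markers summed to 1730 to 2360 CPM in AD libraries, against 2840 to 3080 CPM in Control libraries, and the 6 glia markers to 1510 to 1570 CPM in AD libraries, against 1860 to 2120 CPM in Control libraries. The sum of each of these lists was thus lower in AD than in Control without overlap. In libraries labelled AD + Yip7, hemocyte (136 to 231 CPM) and neuron markers (2310 to 2630 CPM) overlapped AD, and glia markers (1600 to 1920 CPM) lay above it. In those labelled AD + Yip7ΔS, hemocyte (218 to 261 CPM) and glia markers (1680 to 1850 CPM) lay above AD, and neuron markers (2080 to 2470 CPM) overlapped it. Muscle markers (3520 to 3690 CPM in AD, 3560 to 4190 CPM in Control libraries) and oenocyte markers (2.99 to 7.68 and 5.37 to 9.91 CPM) overlapped. Photoreceptor markers met at 54100 CPM (47300 to 54100 CPM in AD, 54100 to 68400 CPM in Control libraries). The 6 digestive markers of the midgut were higher in AD, with 698 to 994 CPM in AD libraries, against 8.85 to 80.4 CPM in Control libraries, where *betaTry* and *Npc2d* were at 0. They summed to 76.1 to 414 CPM in libraries labelled AD + Yip7 and 44.1 to 261 CPM in those labelled AD + Yip7ΔS. The part of these lists in the values of the 8 genes was not tested. The largest fold change of the fat body list in AD vs. Control was that of *tobi* (-2.71 ± 0.55, edgeR adjusted p = 0.0033). It averaged 37.9 CPM in AD libraries and 248.5 CPM in Control libraries. The fold changes of *Lsp1beta* and *Lsp2* were larger. Without Control replicate 3, the library with the other age label, these 2 were -6.60 ± 0.58 and -5.46 ± 1.03, and that of *apolpp* was -0.88 ± 0.15.

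Neighbouring genes were examined after the data had been seen, taking every tested gene within 25 kb of either end. Of 4 neighbours of *Lsp1beta*, 2 were called in AD vs. Control, both higher. These were *GluRIIC*, a glutamate receptor subunit gene (1.56 ± 0.15, adjusted p = 1.63e-05), and *CG15824* (1.43 ± 0.36, adjusted p = 0.0121). Of 12 neighbours of *Lsp2*, 1 was called, *eIF3l*, as higher (0.71 ± 0.12, adjusted p = 0.000889), and the log2 fold changes ranged between -0.41 and 0.71. The 4 neighbours of *apolpp* ranged between -0.38 and -0.12, with adjusted p of 0.206 to 0.535. No neighbour of *Lsp1beta* or *Lsp2* had a log2 fold change below -0.41. *Fbp2* had 2 of 6 neighbours that were higher, *Mco1* (2.03 ± 0.50, adjusted p = 0.01) and *scat* (0.31 ± 0.10, adjusted p = 0.0331).

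**Figure D5:**
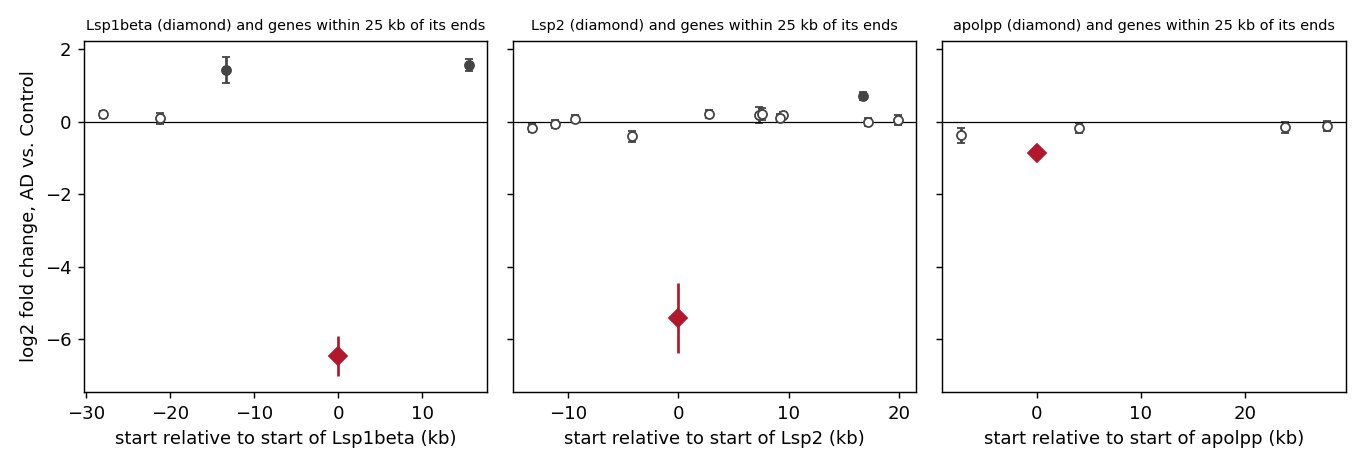
Log2 fold change in AD vs. Control (y axis, bars are standard errors) of *Lsp1beta*, *Lsp2* and *apolpp* (diamonds) and of the tested genes within 25 kb of their ends (circles, filled where the edgeR adjusted p is under 0.05), by the distance between gene starts in kb (x axis). The neighbours of *Lsp1beta* lie between 0.09 and 1.56, against -6.46 for the gene itself.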

How the data were processed

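RNA-seq was performed on heads, 3 libraries in each of 4 groups. Per the labels, mRNA was selected with oligo(dT) beads and sequenced on an Illumina instrument, and the submitters' processing notes name FastQC, HISAT2 2.1.0, StringTie 1.3.1, DESeq2 1.36.0 and the dm6 build. The study's methods name fastp, HISAT2 and HTSeq-count. The deposited values were raw read counts per gene made by the authors, with no normalization. The strand setting and annotation are not given in the sources used here.

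The test was edgeR's (version 4.0.16, under R 4.3.3). All 12 libraries entered a single fit (filterByExpr, TMM factors, quasi-likelihood test), 6 comparisons were drawn from it and p-values were adjusted by Benjamini-Hochberg over the 10577 genes kept. CPM were computed with edgeR from TMM-scaled library sizes. Log2 values for plots and spreads used a prior count of 2. Standard errors were the log2 fold change over the square root of the F statistic. Libraries held 38064884 to 41737332 counts. Intervals on summed counts were exact binomial at 95% and cover counting error only. The study's methods describe the 3 libraries of a group as biological replicates, each from pooled heads. Locations were taken from Ensembl's BDGP6 annotation by gene symbol, with 101 of 102 listed genes located.

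The members and lists were chosen with earlier results of these data known. Named were all 8 members and up to 3 called genes of smallest adjusted p per list and comparison. Also named were *LpR1*, *LpR2* and *Mtp* whatever their result, and for each member tested the 3 genes with the most similar profile. Outside this rule, *fit*, *bmm*, *tobi*, *EcR*, *usp*, *yip7* and the neighbours were named after their values were seen. Alternatives were DESeq2 (1.42.0) size factors and test, upper quartile scaling, no filter or at least 10 counts in every library, a prior count of 0.5, fits on the 6 libraries of a comparison, a replicate block and leaving out each library. Scripts were tested on simulated data.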

Additional observations from a re-analysis of the deposited data

How the results depend on the processing

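The count of genes called among the 48 listed genes depended on the tool where few were called. For libraries labelled AD + Yip7 vs. AD it was 4, against 9 by DESeq2 on all 12 libraries and 8 by DESeq2 on the 6 libraries compared. For AD + Yip7ΔS vs. AD it was 1, against 6 and 5 by DESeq2 on 12 and on 6 libraries and 0 by edgeR on 6. For AD + Yip7 vs. AD + Yip7ΔS it was 0, against 3 and 2 by DESeq2. For AD + Yip7 vs. Control it was 7, against 14 by edgeR and 19 by DESeq2 on 6 libraries. Leaving out each library gave 2 to 5, 0 to 2, 0 to 0 and 6 to 10 in these comparisons. It gave 7 to 14 for AD + Yip7ΔS vs. Control, where 14 were called with all libraries and 7 without Control replicate 3. It gave 15 to 21 for AD vs. Control, where 17 were called.

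Over all genes, DESeq2 on 12 libraries called 449 genes where edgeR called 191 (AD + Yip7 vs. AD), 495 where edgeR called 196 (AD + Yip7ΔS vs. AD) and 135 where edgeR called 7 (AD + Yip7 vs. AD + Yip7ΔS). On the 6 libraries compared DESeq2 called 520, 359 and 131, and edgeR called 120 in AD + Yip7ΔS vs. AD. On 6 libraries DESeq2 called 2550 in AD + Yip7 vs. Control, where edgeR called 1541 in the fit of all 12. Without the count filter edgeR called 16 in AD + Yip7 vs. AD + Yip7ΔS. Whether the same replicate number marked paired libraries could not be decided, since the values ran both ways. Correlations of deviations over 18 same-number pairs ran between -0.39 and 0.29, 5 of them over 0.1, and 6 of 12 libraries were closest to their own number. For replicate 2 they were 0.152, 0.228 and 0.29 among the groups with Aβ42, and -0.211, -0.209 and -0.39 between these and Control. With the replicate number as a block the counts of listed genes called were 3, 1, 0, 8, 14 and 18 in the order above. With this block, 0 of the 7 genes tested were called in AD + Yip7 vs. AD (1.41% of all genes) and AD + Yip7ΔS vs. AD (1.76%). Over all alternatives, 4 to 8 of the 8 genes were tested. In AD + Yip7 vs. AD 0 to 3 were called (0.775 to 5.03% of all genes) and in AD + Yip7ΔS vs. AD 0 to 2 (0.689 to 4.69%). In AD vs. Control 3 to 5 were called (17.8 to 30.8% of all genes), the 3 among 4 tested at 10 counts or more in every library. In AD + Yip7 vs. AD, *apolpp* lost its call under upper quartile scaling, without the filter, with the block, in edgeR on 6 libraries and in 9 of 12 fits without a library. *Lsp1beta* lost it with the block, on 6 libraries with either tool and in 8 of 12 fits without a library. In AD + Yip7ΔS vs. AD, *apolpp* lost its call in 5 of 8 other alternatives and in 11 of 12 fits without a library. Of 54 calls (43 of listed genes and 11 of the 8 genes, over the comparisons), 0 changed sign under the alternatives in which the gene had a fitted value. Depth limits *Lsp1alpha*, *Lsp1gamma*, *Fbp1* and *Fbp2*. *Lsp1alpha* had no fitted value under the main filter.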

Other observations

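Similarity of profile was measured as the root mean square difference of centred log2 CPM over the 12 libraries, as a description. *Lsp1beta* and *Lsp2* were among the 3 nearest genes of each other (1.2). The nearest gene to *Lsp1beta* was *Or22b*, an odorant receptor gene (1.09), with a mean of 0.0396 CPM in AD libraries and 1.75 CPM in Control libraries. *CG13978* was near both (1.12 and 1.33), with 0 CPM in AD libraries and a mean of 0.901 CPM in Control libraries, and lncRNA:CR45242 was near *Lsp2* (1.29). The genes nearest to *Lsp1gamma* were *CBP* (0.40), the small heat shock protein gene *l(2)efl* (0.435) and *CG18599* (0.444). *l(2)efl* averaged 280.9 CPM in AD libraries and 74.9 CPM in Control libraries, and 107.5 CPM in libraries labelled AD + Yip7. *Fbp1* was nearest to *TotA* (0.618), *RecQ4* (0.642) and *TotX* (0.649), of which *TotA* and *TotX* encode secreted stress proteins. *Fbp2* was nearest to *ppk17* (0.372), *CG32668* (0.403) and *Rpt3R* (0.431). *apolpp* was nearest to *CG4335* (0.11), *CG3164* (0.133) and *CG17841* (0.134), and *Apoltp* to *CG5608* (0.113), *CG11123* (0.113) and *BTBD9* (0.114).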
